A study of Mus musculus with 70 samples.

Results

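The 6 mouse genes described here belong to the prolactin family and were followed through RNA-seq libraries of senescent fibroblasts: the proliferin genes Prl2c2, Prl2c3 and Prl2c5 and the placental lactogen genes Prl3d1, Prl3d2 and Prl3d3. They are 6 of the 21859 genes in the deposited table, and each was found there by its symbol. They had been picked because their values with doxycycline stood far above those without it in the fibroblasts, so that contrast is described below and not tested. The 24 fibroblast libraries came from mouse embryonic fibroblasts (MEFs), made from C57BL/6 embryos at E13.5 after removal of the head and viscera and labelled male. They form 8 groups of 3. Of these, 4 groups carry caMEK1, a constitutively active MEK1 that switches on the kinase ERK and that the study uses to bring about oncogene-induced senescence; the transgene is read as a Xenopus sequence. The other 4 carry caMKK6, an active MKK6 that switches on the kinase p38 and that the study uses for stress-induced senescence; it is read as a human sequence. Doxycycline at 2 µg/mL induced each transgene for 2, 4 or 7 days, and the untreated group of each genotype was taken at day 2 only. Every MEF group carries a kinase transgene, so an effect of doxycycline itself and an effect of the kinase cannot be told apart in these cells. The series also holds 23 colon and 23 liver libraries of cells sorted from chimeric mice, in which mCherry cells carry the transgene and GFP cells surround them, with mCherry and GFP cells of animals labelled control beside them; animals on doxycycline drank it for 7 days at 0.2 mg/mL (caMEK1) or 2 mg/mL (caMKK6 and control).

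The prolactin family has expanded in rodents into a cluster of hormone genes, most of which are expressed in the placenta. Trophoblast giant cells secrete the placental lactogen I proteins of the Prl3d genes, which bind the prolactin receptor and signal through JAK2 and STAT5. Proliferins, the products of the Prl2c genes, were found as transcripts that serum and growth factors switch on in mouse fibroblast lines; they are secreted glycoproteins known for promoting blood vessel growth, and they bind the mannose 6-phosphate receptor encoded by Igf2r. AP-1, the dimer of Fos and Jun proteins that ERK and other MAP kinases control, is a known regulator of both proliferin and placental lactogen I promoters.

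All 6 genes lie on chromosome 13 (GRCm38), in a pair of clusters. The proliferin genes span 401 kb: Prl2c3 at chr13:12790816-12800079 and Prl2c2 at chr13:12996125-13005383 on the minus strand, and Prl2c5 at chr13:13182715-13191923 on the plus strand. The Prl3d genes span 68.4 kb, all on the plus strand: Prl3d1 at chr13:27094190-27100258, Prl3d2 at chr13:27121698-27127555 and Prl3d3 at chr13:27156790-27162593. Their longest transcripts were 96.4% to 99.5% identical within a subfamily (6 pairs) and 57.8% to 59.6% identical between the subfamilies (9 pairs). The part of each gene that a short read can tell from every other gene is therefore limited: of all stretches of 50 bases, 16.7% were found in no other gene for Prl2c2, 40.0% for Prl2c3, 64.9% for Prl2c5, 44.4% for Prl3d1, 31.8% for Prl3d2 and 32.5% for Prl3d3. How reads that match several genes were counted is not given in the sources used here, so a value of a single gene is less certain than the summed value of a subfamily. The proliferin genes also share stretches with Gm7040, Prl2c1 and Prl7d1 (19.97% to 26.0% of each gene's stretches).

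The promoters show how alike the members are and where the subfamilies part. The bases just before the annotated start are printed 5′ to 3′ from RefSeq (GRCm38.p6), for the 5 members with an entry. The Prl3d windows hold 120 bases on the plus strand: chr13:27094069-27094188, chr13:27121575-27121694 and chr13:27156674-27156793. The proliferin windows hold 250 bases, chr13:12800080-12800329 on the minus strand and chr13:13182466-13182715 on the plus strand. Capitals mark matches to TGANTCA (an AP-1 site with any middle base) and to TATATA, as in core promoters.
Prl3d1: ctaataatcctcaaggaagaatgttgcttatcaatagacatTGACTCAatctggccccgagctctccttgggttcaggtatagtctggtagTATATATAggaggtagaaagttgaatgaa
Prl3d2: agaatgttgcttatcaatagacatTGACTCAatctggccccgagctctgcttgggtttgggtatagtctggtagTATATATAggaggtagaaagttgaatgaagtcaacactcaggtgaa
Prl3d3: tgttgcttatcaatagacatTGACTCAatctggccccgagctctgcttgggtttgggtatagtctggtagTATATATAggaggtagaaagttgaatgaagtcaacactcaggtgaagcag
Prl2c3: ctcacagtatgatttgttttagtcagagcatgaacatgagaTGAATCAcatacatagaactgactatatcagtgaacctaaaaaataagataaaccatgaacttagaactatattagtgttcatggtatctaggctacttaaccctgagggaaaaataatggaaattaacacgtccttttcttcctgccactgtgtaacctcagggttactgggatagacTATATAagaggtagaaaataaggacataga
Prl2c5: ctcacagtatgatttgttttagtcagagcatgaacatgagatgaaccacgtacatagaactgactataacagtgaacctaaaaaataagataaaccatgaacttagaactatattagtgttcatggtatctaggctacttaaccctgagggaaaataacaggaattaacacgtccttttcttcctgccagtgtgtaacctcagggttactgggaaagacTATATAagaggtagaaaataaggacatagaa
Each Prl3d promoter held the AP-1 site TGACTCA, with its first base 79 (Prl3d1), 96 (Prl3d2) or 100 (Prl3d3) bases before the start. Of 27025 mouse promoters searched over the same 250 bases and on both strands, 4.43% held TGACTCA. With any middle base the search also found TGAATCA in Prl2c3, 209 bases before the start, and no match in Prl2c5 (6.87% of all promoters held TGANTCA, a count that includes TGACTCA). The Prl2c3 and Prl2c5 windows were 96.8% identical with 8 substitutions, of which T46C, counted from 1 at the 5′ end of the Prl2c3 window, falls within that TGAATCA. Over the 250 bases before the start, of which 120 are printed, the 3 Prl3d promoters were 97.9% to 99.6% identical in the 229 to 246 bases that aligned. Their shared site is therefore 1 piece of sequence read in 3 copies. TATATA occurred in all 5 windows, within 50 bases of the start (5.56% of all promoters). AGATAA, letters that the trophoblast regulators Gata2 and Gata3 are known to bind, occurred 163 bases before the start in both Prl2c3 and Prl2c5 (10.3% of all promoters). Over the same 250 bases AGATAA occurred in none of the Prl3d promoters, and the CRE letters TGACGTCA occurred in none of the 5 (1.62%). Other forms of the GATA site were not searched for. Each printed Prl3d sequence holds ttatca, which reads TGATAA on the other strand and differs from AGATAA in its first base. The Prl3d promoters are therefore not shown to lack a GATA site. A match of letters is a description of the sequence and shows no binding.

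The MEF libraries held 10888915 to 17763531 reads assigned to genes, recovered from the FPKM values (fragments per kilobase of exon, scaled to library depth); the lowest over the series was 6671204. Each kinase transgene responded to doxycycline as labelled: the MEK1 transgene stood at 1.94 to 4.04 FPKM in untreated caMEK1 MEFs and at 459.6 to 1169 FPKM on doxycycline, and the MKK6 transgene at 0.407 to 3.17 FPKM and 129.7 to 1209 FPKM in caMKK6 MEFs. Of the caMKK6 libraries, 5 also held 10.96 to 16.5 FPKM of the MEK1 transgene: untreated replicates 2 and 3, day 2 replicates 2 and 3, and day 4 replicate 2. Results that rest on these libraries are given with and without them where the call differs; without them the caMKK6 groups keep 1 untreated, 1 day 2 and 2 day 4 libraries, and a lone library is assumed to vary like the other groups. The summed level of 8 fibroblast markers (collagens, Pdgfra, Pdgfrb, Thy1, Vim, Dcn) was 1332 to 2809 FPKM in the MEF libraries. Replicates are separate libraries of a group; the labels do not say whether they are separate cultures, so p-values measure the spread between these libraries, which may be technical.

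With doxycycline all 6 genes together reached levels of abundant transcripts, from a few FPKM without it. In caMEK1 MEFs the summed level was 0.862, 2.07 and 4.25 FPKM in the untreated replicates 1, 2 and 3, then 189.7, 196 and 283 FPKM at day 2, 259, 336 and 482 FPKM at day 4, and 297, 315 and 573 FPKM at day 7. In caMKK6 MEFs it was 2.74, 13.51 and 11.6 FPKM untreated, then 247, 413 and 241 FPKM at day 2, 308, 516 and 221 FPKM at day 4, and 209.8, 411 and 117 FPKM at day 7. Every library with doxycycline lay above every library without it. The ratio of the group means was 93.1, 149.97 and 165 at days 2, 4 and 7 in caMEK1 MEFs and 32.3, 37.6 and 26.5 in caMKK6 MEFs; the 3 days of a genotype share the same untreated libraries. The caMEK1 ratios rest on 96 reads in the untreated libraries, of which replicate 3 holds the most, and without that replicate they came to 152, 245 and 269.7. Without caMKK6 day 7 replicate 2 the caMKK6 ratio at day 7 came to 17.6. The mean sums of the treated groups ran from 223 ± 51.9 FPKM (SD, n = 3; caMEK1 day 2) to 395 ± 154 FPKM (caMEK1 day 7), and each group's range overlapped its neighbour's in that order. Libraries with the same number deviate together within a genotype, and by number the sum was higher at day 4 than at day 2 in 3 of 3 caMEK1 pairs and 2 of 3 caMKK6 pairs, and at day 7 than at day 4 in 2 of 3 caMEK1 pairs and 0 of 3 caMKK6 pairs, as a description with no test. The order of the untreated groups was likewise unresolved, with 9.28 ± 5.75 FPKM in caMKK6 and 2.39 ± 1.72 FPKM in caMEK1 MEFs, whose ranges overlap. These are bulk libraries, in which a change in the share of cells that express a gene and a change in the RNA per cell cannot be told apart.

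**Figure D1:**
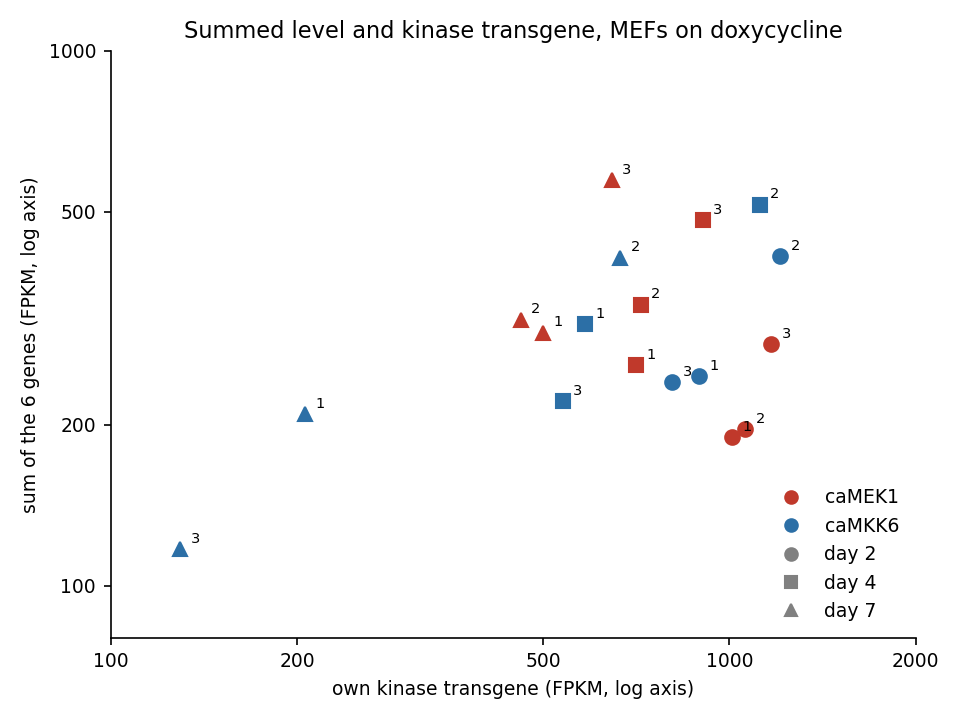
Summed level of the 6 genes (y, FPKM, log axis) against the level of the library's own kinase transgene (x, FPKM, log axis) in the 18 MEF libraries with doxycycline; colour gives the kinase, shape the day, and the number beside a point its replicate. Within each caMKK6 day replicate 2 is highest on both axes, and the caMEK1 points at day 2 have the most transgene and the lowest mean sum of that genotype.

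The level of the genes ran with the level of the induced kinase within most groups but not across days. Ranked by their sum, the 3 replicates stood in the same order as by their own transgene in 5 of 6 treated groups, the exception being caMEK1 day 7, where replicates 1 and 2 changed places. Across days the order was opposite in caMEK1 MEFs: the transgene averaged 1079 ± 81.7, 777 ± 112 and 535 ± 97.6 FPKM at days 2, 4 and 7 (SD, n = 3 each), whereas the sum of the 6 genes averaged 223, 359 and 395 FPKM. In caMKK6 MEFs the transgene stood at 969.6 ± 211, 747 ± 323 and 334 ± 290 FPKM at days 2, 4 and 7, and the mean sum at 300.1, 349 and 246 FPKM. By sum the replicates stood in the same order on every treated day of a genotype, and same-numbered libraries deviate together. The groups of a genotype are therefore not separate observations of this order. These orders are descriptions of 3 libraries a group and were not tested.

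Among the proliferins, Prl2c3 was the most abundant, Prl2c2 came next and Prl2c5 was the least abundant in every treated library. In caMEK1 MEFs Prl2c3 was at 0.249, 0.2198 and 0.718 FPKM untreated, 33.6, 34.6 and 63.6 at day 2, 27.8, 44.6 and 82.2 at day 4, and 48.1, 59.0 and 111 at day 7. The caMKK6 MEFs had it at 0.849, 4.11 and 2.16 FPKM untreated, 111, 205 and 111 at day 2, 117, 167 and 89.1 at day 4, and 105, 192 and 60.1 at day 7. Replicate 3 was the highest of every caMEK1 group and replicate 2 the highest of every caMKK6 group, and neither genotype's treated values reached down to its untreated ones.

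Prl2c2 differed from Prl2c3 in when it reached its level. In caMEK1 MEFs it was at 0.0620, 0.110 and 0.597 FPKM untreated, 3.93, 4.74 and 6.95 at day 2, 10.7, 14.4 and 22.6 at day 4, and 19.3, 25.7 and 41.7 at day 7, so that the day 4 range lay above the day 2 range and overlapped that of day 7 only through the lowest day 7 library. With caMKK6 it was at 0.652, 2.86 and 1.501 FPKM untreated, and already at 22.2, 38.8 and 21.003 at day 2, with 28.8, 39.2 and 23.9 at day 4 and 48.8, 46.5 and 23.4 at day 7. The ratio of Prl2c3 to Prl2c2 accordingly went from 7.31 to 9.15 over the caMEK1 libraries at day 2 to 2.60 to 3.64 at day 4 and 2.30 to 2.67 at day 7. In caMKK6 MEFs that ratio was 5.00 to 5.28, 3.72 to 4.26 and 2.15 to 4.13. These 2 transcripts are 99.5% identical, so the ratio depends on how shared reads were divided.

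Prl2c5 was a minor transcript throughout. No read of it was counted in the 3 untreated caMEK1 libraries, and it was at 0.0569, 0.281 and 0.186 FPKM at day 2, 0.574, 1.01 and 1.49 at day 4, and 0.844, 1.98 and 2.97 at day 7. Against a floor of 3 reads over the untreated group, its mean was at least 3.00-fold, 17.6-fold and 33.2-fold higher at days 2, 4 and 7, a bound that covers counting error only. The caMKK6 libraries had it at 0, 0.120 and 0.116 FPKM untreated, 2.35, 1.52 and 1.36 at day 2, 4.21, 3.74 and 2.52 at day 4, and 7.42, 5.59 and 3.09 at day 7. Replicate 1, not 2, was the highest of each treated caMKK6 group for this gene, unlike Prl2c3.

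**Figure D2:**
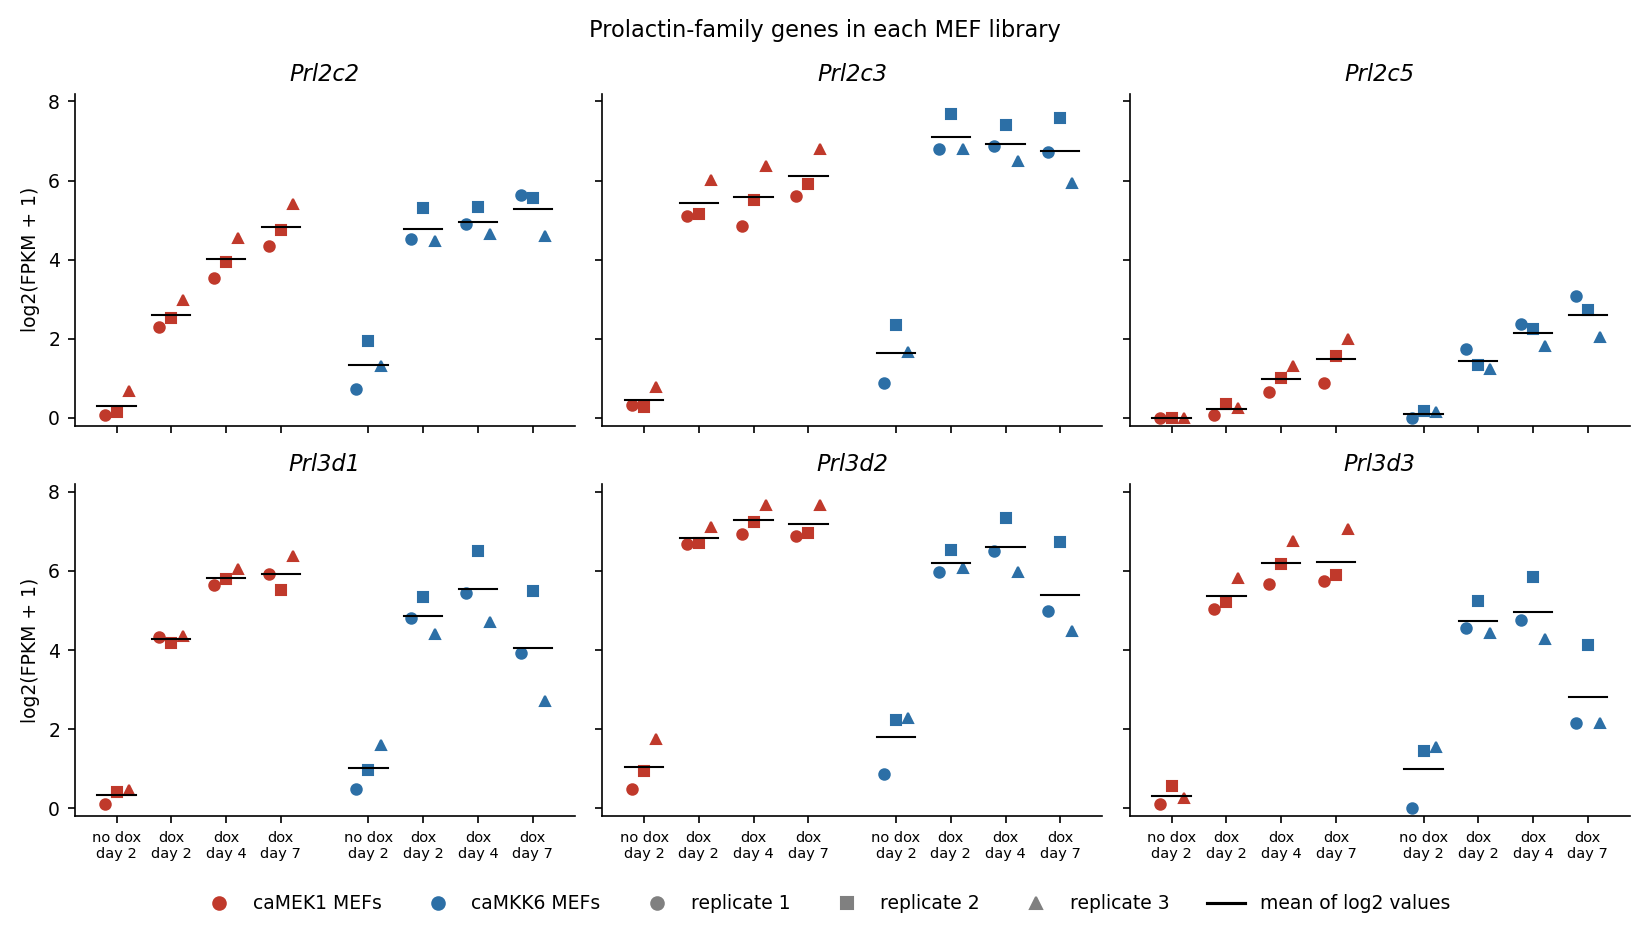
Level of each of the 6 genes, as log2(FPKM + 1), in each of the 24 MEF libraries (points; shape gives the replicate) with the mean of the log2 values (bar), by genotype, treatment and day. All treated libraries lie above the untreated ones of their genotype, Prl2c2 climbs from day to day in caMEK1 MEFs, and the Prl3d genes stand lower at day 7 than at day 4 in caMKK6 MEFs.

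Of the placental lactogen I genes, Prl3d2 was the most abundant. In caMEK1 MEFs it was at 0.395, 0.908 and 2.38 FPKM untreated, 101, 103 and 137 at day 2, 122, 149 and 204 at day 4, and 117, 124 and 204 at day 7. In caMKK6 MEFs it was at 0.830, 3.72 and 3.90 FPKM untreated, 62.0, 90.7 and 66.5 at day 2, 90.3, 160.1 and 62.2 at day 4, and 30.6, 106 and 21.5 at day 7. The caMEK1 ranges of the 3 days overlapped, whereas at day 7 the caMKK6 replicates 1 and 3 lay below every other treated library and replicate 2 did not.

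The Prl3d3 range at day 7 lay below those of days 2 and 4 in caMKK6 MEFs, which it did not in caMEK1 MEFs. In caMEK1 MEFs it was at 0.0787, 0.487 and 0.189 FPKM untreated, 32.1, 36.2 and 55.7 at day 2, 49.7, 71.7 and 107 at day 4, and 53.1, 59.0 and 132 at day 7. The caMKK6 MEFs had it at 0, 1.73 and 1.90 FPKM untreated, 22.5, 36.5 and 20.7 at day 2, 26.0, 56.1 and 18.4 at day 4, and 3.45, 16.4 and 3.47 at day 7. The ratio of means was 164, 302 and 323 in caMEK1 MEFs, on 10 untreated reads, and 22.0, 27.6 and 6.43 in caMKK6 MEFs, on 45. These ratios hang on single libraries: without untreated replicate 2 the caMEK1 ratios were 308, 568 and 606. Without treated replicate 2 the caMKK6 ratios at days 4 and 7 were 18.3 and 2.86, and without untreated replicate 1 they were 18.4 and 4.28.

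Prl3d1 averaged less than Prl3d3 on each treated day in caMEK1 MEFs and more in caMKK6 MEFs. In caMEK1 MEFs it was at 0.0773, 0.342 and 0.372 FPKM untreated, 19.1, 17.2 and 19.5 at day 2, 48.6, 54.3 and 65.4 at day 4, and 59.3, 44.6 and 81.5 at day 7. With caMKK6 it was at 0.406, 0.970 and 2.03 FPKM untreated, 27.0, 39.8 and 20.2 at day 2, 42.4, 90.1 and 25.3 at day 4, and 14.3, 44.1 and 5.59 at day 7. The caMKK6 groups were the more spread, with replicate 2 highest and replicate 3 lowest on each day. In all 36 pairings of a member with a treated and its untreated group the ranges did not overlap. This is the contrast that chose the members, so the separation is a description. The share of all genes with such separated ranges was not counted, and the calls that follow are another measure. Of all 11347 genes tested, 19.5%, 28.5% and 33.4% were called higher and 19.8%, 29.3% and 28.7% lower at days 2, 4 and 7 in caMEK1 MEFs, and 14.3%, 17.1% and 16.8% higher and 24.8%, 27.7% and 24% lower in caMKK6 MEFs.

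The kinases differed in which subfamily made up the sum. In caMEK1 MEFs the proliferins were 21.7% ± 2.91, 18.3% ± 3.50 and 25.9% ± 2.57 of the summed FPKM at days 2, 4 and 7 (SD, n = 3), and in caMKK6 MEFs 56.6% ± 2.59, 47.1% ± 5.89 and 70.1% ± 9.34. Prl3d2 was the most abundant of the 6 genes in 9 of 9 treated caMEK1 libraries, and Prl2c3 in 9 of 9 treated caMKK6 libraries. The shares of the 9 treated caMEK1 libraries (15.1% to 27.6%) and of the 9 treated caMKK6 libraries (40.7% to 76.9%) did not overlap. FPKM divides by exon length, which runs from 1090 to 1360 bases over the proliferins, so the shares also depend on how reads were divided within a subfamily. Untreated, the proliferin share was 15.9% to 36.1% in caMEK1 and 32.5% to 54.8% in caMKK6 MEFs, on sums of 0.862 to 13.51 FPKM.

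**Figure D3:**
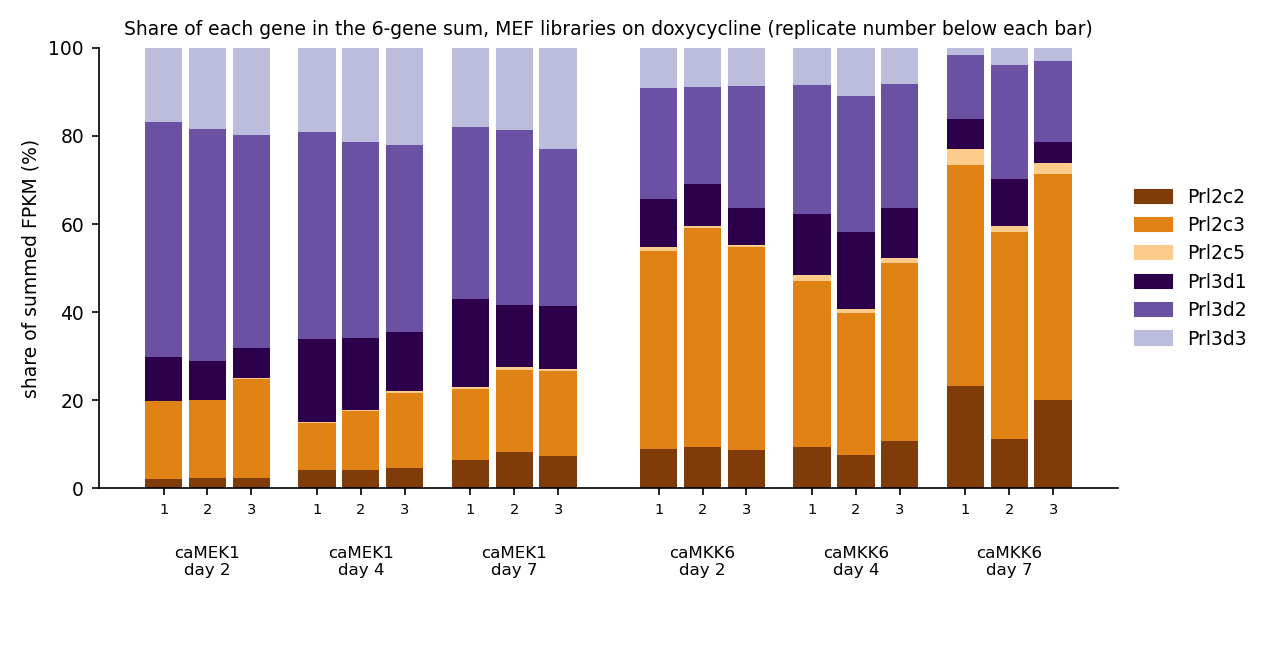
Share of each gene in the summed FPKM of the 6 genes (y, percent) in each of the 18 MEF libraries with doxycycline, grouped by kinase and day with the replicate number under each bar; brown to light orange are proliferins and purples the Prl3d genes. The proliferin part is 15.1% to 27.6% in caMEK1 libraries and 40.7% to 76.9% in caMKK6 libraries.

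Set directly against each other on the same day and the same doxycycline, caMEK1 MEFs had less proliferin RNA early and caMKK6 MEFs less placental lactogen I RNA late. These contrasts did not choose the members but use the same treated libraries. They compare levels, not rises over untreated cells, and a difference in those rises at day 2 was not tested. The day 2 ratio of means to untreated was 20.3 for Prl2c2 and 111 for Prl2c3 in caMEK1 MEFs, on 11 and 22 untreated reads. In caMKK6 MEFs it was 16.4 and 60.01. Without untreated replicate 1 the caMEK1 ratio of Prl2c2 came to 14.7. For Prl2c5 only a bound of at least 3.00 is known in caMEK1 MEFs, beside 22.2 in caMKK6 MEFs on 4 untreated reads. At day 2 all 3 proliferins were called lower in caMEK1 than in caMKK6 MEFs: Prl2c2 by a log2 difference of -2.17 ± 0.36 (SE; adjusted p = 5.6e-05), Prl2c3 by -1.67 ± 0.46 (adjusted p = 0.0052) and Prl2c5 by -1.21 ± 0.25 (adjusted p = 0.00058), on the log2(FPKM + 1) scale, which understates the difference of low genes. The caMEK1 values of Prl2c5 at day 2 rest on 1, 5 and 3 reads and lie under the 1 FPKM of the filter, so its p-value rests on counts near the floor. No Prl3d gene was called at day 2, with Prl3d1 at -0.56 ± 0.50, Prl3d2 at 0.64 ± 0.48 and Prl3d3 at 0.62 ± 0.52. Of all genes tested, 46.9% were called at day 2, 31% higher and 15.8% lower in caMEK1. Without the caMKK6 libraries that hold the MEK1 transgene, which leaves 1 caMKK6 library at day 2, Prl2c3 was at -1.38 ± 0.62 and not called (adjusted p = 0.095); those of Prl2c2 and Prl2c5 held in 13 of 13 alternatives.

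At day 7 the calls had passed to the other subfamily. Prl3d3 was higher in caMEK1 MEFs by a log2 difference of 3.43 ± 0.52 (adjusted p = 1.4e-05), Prl3d1 by 1.88 ± 0.50 (adjusted p = 0.0033) and Prl3d2 by 1.77 ± 0.48 (adjusted p = 0.0043). Prl2c5 was still lower, by -1.13 ± 0.25 (adjusted p = 0.00084), whereas Prl2c2 at -0.44 ± 0.36 (adjusted p = 0.31) and Prl2c3 at -0.64 ± 0.46 (adjusted p = 0.25) were not called. All 4 calls held in 13 of 13 alternatives. The background at day 7 was 54.6% of all genes called, 35.8% higher and 18.8% lower in caMEK1. Scaling the libraries to a common median moved the share of calls that were higher in caMEK1 from 65.6% to 44.0% over all genes (day 2, 66.2% to 44.1%; day 4, 63.7% to 42.8%) and left these 4 members called in the same direction.

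Day 4 lay between. Prl2c5 was lower in caMEK1 MEFs by -1.15 ± 0.25 (adjusted p = 0.00069) and held in every alternative. Prl2c3 was lower by -1.34 ± 0.46 (adjusted p = 0.018), but not without the MEK1-bearing caMKK6 libraries (-1.11, adjusted p = 0.073), without caMEK1 day 4 replicate 1 (0.11) or without caMKK6 day 4 replicate 2 (adjusted p = 0.079). Prl2c2 at -0.94 ± 0.36 (adjusted p = 0.033) and Prl3d3 at 1.24 ± 0.52 (adjusted p = 0.049) were marginal, with the call lost in 7 and 8 of 13 alternatives. Among these were leaving out replicate 1 or 2 of either genotype for Prl2c2 (adjusted p of 0.059 to 0.15) and, for Prl3d3, caMEK1 replicate 2 or 3 or caMKK6 replicate 1 or 3 (adjusted p of 0.091 to 0.19). The background was 53.5% of all genes called, 34.1% higher and 19.4% lower. Without doxycycline no member was called between the genotypes, against 6.48% of all genes (4.08% higher and 2.4% lower in caMEK1); Prl2c2 was at -1.03 ± 0.36 (adjusted p = 0.091) and Prl2c3 at -1.17 ± 0.46 (adjusted p = 0.13). A pseudocount of 0.1 in place of 1 made both of them lower in untreated caMEK1 MEFs, by -2.41 (adjusted p = 0.0082) and -2.21 (adjusted p = 0.019). The untreated caMKK6 replicates with the higher sums, 2 and 3, are those with MEK1 transgene reads, and the part of those reads in the result was not tested.

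**Figure D4:**
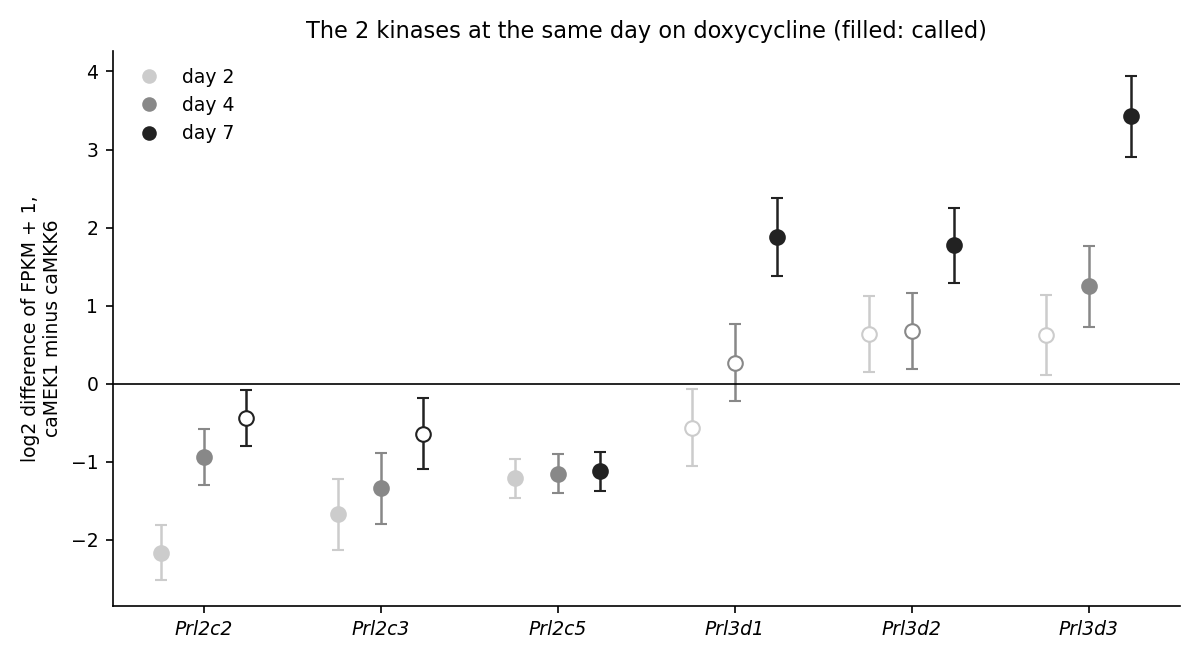
Difference of caMEK1 minus caMKK6 MEFs in log2(FPKM + 1) (y) for each gene (x) at days 2, 4 and 7 on doxycycline, with its standard error; filled points were called. Proliferins lie below 0 at day 2, Prl3d3 lies farthest above 0 at day 7 (3.43), and Prl2c5 stays near -1.2 on all 3 days.

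Between days on doxycycline, 3 members were called higher in caMEK1 MEFs from day 2 to day 4. Prl2c2 rose by 1.41 ± 0.36 on the log2 scale (adjusted p = 0.0048, held in 13 of 13 alternatives), Prl3d1 by 1.53 ± 0.50 (adjusted p = 0.023) and Prl2c5 by 0.77 ± 0.25 (adjusted p = 0.026), against 31.3% of all genes called, 16.2% higher and 15.1% lower. The Prl3d1 and Prl2c5 calls were lost in 5 and 4 of 13 alternatives, 4 of them each by leaving out a library: day 2 replicate 1 or 2 or day 4 replicate 2 or 3 for Prl3d1 (adjusted p of 0.055 to 0.071), and day 2 replicate 1 or 3 or day 4 replicate 2 or 3 for Prl2c5 (adjusted p of 0.053 to 0.12). The Prl2c5 call also rests on 1, 5 and 3 reads in the day 2 libraries. Prl2c3, Prl3d2 and Prl3d3 were not called at this step. Same-numbered libraries of a genotype deviate together, so the number was also taken as a block within genotype: Prl3d3 was then called as well (0.84 ± 0.32, adjusted p = 0.047), and so was Prl2c2 from day 4 to day 7 (0.81 ± 0.19, adjusted p = 0.010), a step at which no member was called without the block and 3.6% of all genes were (2.16% higher and 1.45% lower).

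In caMKK6 MEFs no member was called from day 2 to day 4, where 16.2% of all genes were (7.39% higher and 8.8% lower); with the block Prl2c5 was (0.71 ± 0.19, adjusted p = 0.0100, against 0.061 without). From day 4 to day 7 Prl3d3 fell by 2.14 ± 0.52 on the log2 scale (adjusted p = 0.031), a step at which 3% of all genes were called, 1.94% higher and 1.06% lower. That call was lost in 7 of 14 alternatives, among them the pseudocount of 0.1 (adjusted p = 0.13), the test on recovered reads (0.068) and the fit without the MEK1-bearing libraries (adjusted p = 0.18). Leaving out day 4 replicate 1 or 2 or day 7 replicate 1 or 3 also ended it (adjusted p of 0.083 to 0.18). With the block Prl3d1 and Prl3d2 were called lower too, by -1.50 ± 0.38 (adjusted p = 0.017, against 0.10 without) and -1.20 ± 0.31 (adjusted p = 0.018, against 0.18). The size of these steps moved with single libraries in both directions. Without day 7 replicate 2, which has the most transgene (666 FPKM against 206 and 129.7), Prl3d1 was at -2.23 (adjusted p = 0.0046) and Prl3d2 at -1.87 (adjusted p = 0.012). Without day 4 replicate 3 Prl3d1 was at -1.92 (adjusted p = 0.044), and without day 7 replicate 3 Prl3d1 was at -0.84 (adjusted p = 0.46) and Prl3d2 at -0.75 (adjusted p = 0.59).

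The difference between the kinases in the change from day 2 to day 7 was tested as an interaction, a comparison added after the values had been seen. Prl3d3 (2.80 ± 0.73, adjusted p = 0.016), Prl3d1 (2.44 ± 0.70, adjusted p = 0.027) and Prl2c2 (1.72 ± 0.50, adjusted p = 0.029) gained more in caMEK1 than in caMKK6 MEFs, against 13.2% of all genes called, 8.05% higher and 5.17% lower. Prl2c3 at 1.03 ± 0.64 (adjusted p = 0.31), Prl3d2 at 1.14 ± 0.68 (adjusted p = 0.29) and Prl2c5 at 0.09 ± 0.36 (adjusted p = 0.91) were not called. Of 19 alternatives, 2 ended the call of Prl3d3, 7 that of Prl3d1 and 8 that of Prl2c2.

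Markers of other cell types that a MEF culture could hold moved with some of these results. In caMKK6 MEFs the summed level of 5 macrophage markers (Ptprc, Adgre1, Csf1r, Cd68, C1qa) was lowest in replicate 2 of every group, with 9.67 against 22.5 and 31.5 FPKM at day 2, 10.0 against 28.0 and 36.3 at day 4, and 11.2 against 59.8 and 73.8 at day 7. The same replicate had the highest sum of the 6 genes and the most transgene in each treated caMKK6 group, and the part of the marked cells in the caMKK6 values was not tested. In caMEK1 MEFs the macrophage sum was 4.92 to 23.1 FPKM. The summed level of 6 epithelial markers was 8.40 to 28.1 FPKM in untreated caMEK1 MEFs, 49.5 to 145 at day 2, 220 to 299 at day 4 and 207 to 238 at day 7, most of it Krt18, a keratin of simple epithelia (11.7 FPKM untreated and 79.8, 237 and 205 FPKM at days 2, 4 and 7). In caMKK6 MEFs that sum went from 8.70 to 18.3 FPKM untreated to 30.9 to 59.8 FPKM on doxycycline. At day 7 Krt18 had risen by 4.18 ± 0.34 in caMEK1 and by 1.63 ± 0.34 in caMKK6 MEFs on the log2 scale (adjusted p = 3.1e-09 and 0.00091).

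Trophoblast cells, the usual source of these hormones, were looked for with 17 regulators and markers. Their summed level was low in every MEF library: 8.65 to 12.5 FPKM in untreated and 7.30 to 10.5 FPKM in treated caMEK1 MEFs, and 8.93 to 10.8 FPKM in untreated and 12.0 to 14.6 FPKM in treated caMKK6 MEFs. The caMKK6 ranges do not overlap, and the part of the marked cells in the caMKK6 values was not tested. Tpbpa, Ctsj and Synb, which mark spongiotrophoblast, giant cells and syncytiotrophoblast, had no read in any of the 24 libraries. Of the 17, 5 could be tested. In caMEK1 MEFs at day 7, Gata3, Krt7 and Mdfi had fallen, by 0.89, 1.08 and 0.64 on the log2 scale, and Eomes, a regulator of trophoblast stem cells, had risen by 0.83 ± 0.28 (adjusted p = 0.017). In caMKK6 MEFs at day 7 only Eomes of these 5 was called, with a rise of 1.54 ± 0.28 (adjusted p = 0.00027) to 4.10 FPKM. By that rise its untreated caMKK6 level lay under the 1 FPKM of the filter, so this p-value rests on values near the floor.

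Elsewhere in the family some genes behaved like the 6 members and others did not. Of 21 other family genes listed, 20 were in the table and 11 could be tested. In caMEK1 MEFs 1, 4 and 5 of the 11 were called higher and 2, 1 and 1 lower at days 2, 4 and 7, with medians of 0.05, 0.27 and 0.17 on the log2 scale beside -0.01, -0.01 and 0.03 over all genes. In caMKK6 MEFs 8, 9 and 7 were called higher and 1 lower at each day, with medians of 0.83, 1.26 and 1.25 beside -0.06, -0.06 and -0.04. The share of all genes called either way was 39.3%, 57.8% and 62.1% in caMEK1 and 39.2%, 44.8% and 40.8% in caMKK6 MEFs. The 11 include genes at or near 0 FPKM in untreated cells that pass the filter through treated libraries, so these counts are a description.

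The strongest of these in caMEK1 MEFs came late. Prl2a1 was at 0, 0.0676 and 0 FPKM untreated and reached 10.4, 10.5 and 13.47 FPKM at day 7 (log2 change 3.60 ± 0.21), while in caMKK6 MEFs it was not called (0.28 ± 0.21, adjusted p = 0.31). Its untreated caMEK1 libraries lay under the 1 FPKM of the filter, so the caMEK1 change is given with no test. Prl8a9 was at 2.44, 2.48 and 2.42 FPKM untreated, 1.28, 0.773 and 0.928 at day 2, and 33.7, 28.6 and 34.9 at day 7 (3.27 ± 0.24, adjusted p = 7.2e-10). Its day 2 values lay below the untreated ones, unlike those of any member. Prl7b1 was the leading one in caMKK6 MEFs, with 0, 0 and 0.0737 FPKM untreated and 6.09, 23.8 and 3.23 FPKM at day 7 (3.15 ± 0.45), again highest in replicate 2. That change is likewise given with no test, since its untreated caMKK6 libraries also lay under 1 FPKM. Prl6a1 and Prl8a8 were higher at day 7 with both kinases, by 2.29 and 2.30 in caMEK1 and by 1.42 and 1.25 in caMKK6 MEFs. Prl3a1 was lower with both: in caMEK1 MEFs it fell from a mean of 2.13 FPKM to 0.574 FPKM at day 7, by 1.02 ± 0.30 on the log2 scale (adjusted p = 0.0058), and in caMKK6 MEFs from 7.40 to 2.12 FPKM, by 1.27 ± 0.30 (adjusted p = 0.0021). Prl itself, which encodes the pituitary hormone, averaged 0.0991 to 0.323 FPKM in the caMEK1 groups. In caMKK6 MEFs it averaged 0.540 FPKM untreated and 1.88 FPKM at day 7 (log2 change 0.90 ± 0.14). It passed the filter through treated caMKK6 libraries, so that change too is given with no test.

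The MEFs held almost no RNA of the placental lactogen I receptor and a much higher level of that of proliferin. Prlr, the prolactin receptor, averaged 0.0122 to 0.0565 FPKM in the 8 MEF groups, below the filter, whereas it averaged 2.80 to 9.38 FPKM in the untreated colon and liver groups. Igf2r, the mannose 6-phosphate receptor, was at 39.6, 41.8 and 41.1 FPKM in untreated caMEK1 MEFs and at 71.4, 90.7 and 76.7 FPKM at day 7 (log2 change 0.94 ± 0.12, adjusted p = 1.2e-06); the treated libraries all lay above the untreated ones. In caMKK6 MEFs it went from 41.2, 44.6 and 36.5 FPKM to 40.2, 58.5 and 52.2 FPKM (0.28 ± 0.12, adjusted p = 0.064), with overlapping ranges. Of 13 receptor and signalling genes, 12 could be tested: at day 7, 6 rose and 4 fell in caMEK1 MEFs (median 0.32) and 0 rose and 4 fell in caMKK6 MEFs (median -0.11), beside the same shares of all genes called higher and lower at day 7, 33.4% and 28.7% with caMEK1 and 16.8% and 24% with caMKK6. Socs3, which restrains STAT signalling, rose by 1.82 ± 0.21 and Ghr, the growth hormone receptor, by 1.01 ± 0.15 in caMEK1 MEFs, and Stat5b, a mediator of prolactin signals, fell by 0.74 ± 0.06.

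The AP-1 subunits are those whose sites were searched for in the promoters printed above. Of 7 AP-1 subunits, 3 rose and 2 fell at day 7 in caMEK1 MEFs, where 33.4% of all genes were called higher and 28.7% lower, and 1 rose and 5 fell in caMKK6 MEFs, where 16.8% and 24% were; the caMEK1 shares are near the background. Fosl1, a target of ERK, rose by 0.49 ± 0.08 in caMEK1 and fell by 1.18 ± 0.08 in caMKK6 MEFs, and Jun rose by 0.50 ± 0.08 and fell by 0.72 ± 0.08. Fos fell with both kinases, by 1.58 ± 0.19 and 1.98 ± 0.19. RNA levels say nothing of the phosphorylation through which MAP kinases act on AP-1, which was not measured. The ERK output genes, feedback regulators such as Dusp6 and Spry4, separated the kinases: 12 of 12 rose at days 2, 4 and 7 in caMEK1 MEFs (median 1.19 at day 7), and at day 7 in caMKK6 MEFs 1 rose and 6 fell (median -0.36). Dusp6 rose by 2.12 ± 0.10 with caMEK1 and fell by 0.64 ± 0.10 with caMKK6, while the 6 members stood far above their untreated levels with either kinase.

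Of 10 listed growth and angiogenesis genes, 9 rose and 0 fell at day 7 in caMEK1 MEFs (median 2.52), and 4 rose and 3 fell in caMKK6 MEFs (median 0.31), beside 33.4% higher and 28.7% lower and 16.8% higher and 24% lower over all genes. This list, like the others counted here, was chosen with earlier results of these data known, so its counts are a description. A tie of these genes to proliferin was not tested. Mmp3, a matrix protease, rose by 6.88 ± 0.71 in caMEK1 and by 2.01 ± 0.71 in caMKK6 MEFs (adjusted p = 0.029 for the latter). Areg, an EGF receptor ligand, rose by 5.23 ± 0.27 in caMEK1 MEFs and was at 0.02 ± 0.27 in caMKK6 MEFs (adjusted p = 0.96), a difference between the kinases of 4.89 ± 0.27 at day 7 on doxycycline (adjusted p = 1.1e-11). Mmp10, another matrix protease, was also the gene whose level ran most like the summed level of the 6: over the 24 libraries and 7781 genes compared, its Pearson correlation with the sum on the log2 scale was 0.96. Next came Gdpd1 (0.95), Src (0.94), Grem1, an antagonist of BMP ligands (0.94), Sprr1a (0.94), Fth1, a ferritin chain (0.94), Apobr (0.94) and Sdcbp (0.94). The libraries fall into a treated and an untreated cluster and share kinase and depth, so these values only describe which genes run alike in these libraries. Mmp10 averaged 1.11 FPKM in untreated caMEK1 MEFs and 70.0, 177 and 108 FPKM at days 2, 4 and 7, and 2.12, 72.3, 78.3 and 49.4 FPKM in caMKK6 MEFs. Grem1 averaged 76.9, 502, 567 and 494 FPKM, and 71.7, 333, 363 and 349 FPKM.

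The genes next to the clusters moved far less than the members, in values given without a test. On either side of the proliferin cluster, Lgals8 averaged 14.3 FPKM in untreated caMEK1 MEFs and 14.4 FPKM at day 7, and Nid1, a basement membrane protein, 137 and 107 FPKM. Edaradd averaged at most 0.0498 FPKM and Ero1lb at most 0.529 FPKM in any group. Gpr137b had the largest ratio at day 7 among these 6 genes, from 2.76 to 6.43 FPKM in caMEK1 and from 2.68 to 8.09 FPKM in caMKK6 MEFs at day 7. The nearest such genes outside the family lie 324 to 2029 kb from the Prl3d cluster; Hdgfl1 had no read in any MEF group and Sox4 averaged 53.4 FPKM untreated and 74.6 FPKM at day 7 in caMEK1 MEFs.

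In the animals, Prl2c2 was the member with the highest level in the colon. Colon epithelial mCherry cells of caMEK1 mice on doxycycline held Prl2c2 at 9.51 and 21.04 FPKM (85 and 185 reads), whereas no read was counted in the 2 control mCherry libraries, the 3 caMKK6 mCherry libraries or any library of an animal without doxycycline. Against a floor of 3 reads over the control group, its mean was at least 140.04-fold higher, and at least 87.2-fold without replicate 2 of the caMEK1 mCherry cells. The gene passed the filter on low values only through caMEK1 animals on doxycycline, so its difference is given as values with no test. Prl2c3, the most abundant proliferin in MEFs, was at 0.448 and 0.820 FPKM in the same libraries, 0.04 to 0.05 of the Prl2c2 level, where MEFs had 2.15 to 9.15 times as much Prl2c3 as Prl2c2. Prl2c5 was at 0 and 0.316 FPKM, and no Prl3d read was counted in any of the 23 colon libraries.

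Prl2a1 accompanied Prl2c2 there. It was at 7.86 and 8.13 FPKM in caMEK1 mCherry cells and at 0.881, 0.630 and 0.753 FPKM in caMKK6 mCherry cells, with no read in control mCherry cells. Like Prl2c2 it passed the filter through the caMEK1 animals, so the caMEK1 difference is not tested. With caMKK6 the log2 difference was 0.81 ± 0.12 (limma, adjusted p = 0.00015). The caMKK6 values rest on 6, 6 and 10 reads and lie under the 1 FPKM of the filter, so that p-value rests on counts near the floor. Prl2a1 also stood higher in caMEK1 MEFs at day 7 than in untreated ones. With caMEK1, 21.5% of all colon genes were called, 9.54% higher and 12% lower. With caMKK6, 20.8% of all colon genes were called, 11.1% higher and 9.7% lower. Prlr moved the other way in the colon, from 1.60 and 6.08 FPKM in control mCherry cells to 0.191 and 0.0323 FPKM with caMEK1 (-1.95 ± 0.43, adjusted p = 0.0037) and 0.279, 0.133 and 0.0955 FPKM with caMKK6 (-1.88 ± 0.40, adjusted p = 0.0030). GFP cells on doxycycline also had less of it, at 0.836 and 0.973 FPKM in caMEK1 and 0.353 to 0.854 FPKM in caMKK6 animals. Control GFP cells on doxycycline had 1.54 and 6.50 FPKM, and the GFP values were not tested. The caMEK1 animals drank 0.2 and the control animals 2 mg/mL doxycycline. Of the ERK output genes, 7 of 11 tested rose and 0 fell in the caMEK1 colon mCherry cells (median 2.33, beside -0.14 over all genes). In the liver, 1 read of Prl2c3 in a caMEK1 mCherry library was the sole read of any member over 23 libraries; no member could be tested there.

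**Figure D5:**
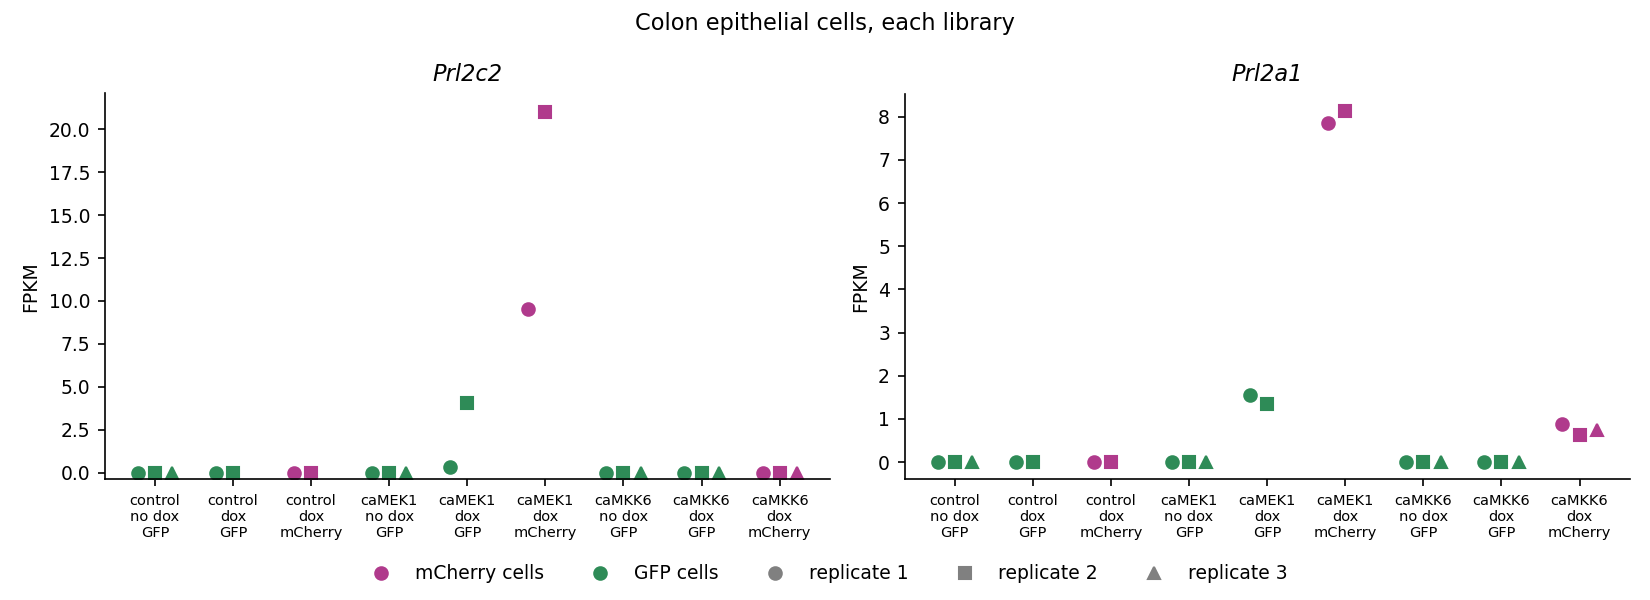
Prl2c2 (left) and Prl2a1 (right) in FPKM in each of the 23 colon libraries, by genotype, doxycycline and sorted colour; shape gives the replicate. Prl2c2 is above 0 only in caMEK1 animals on doxycycline, at 9.51 and 21.04 FPKM in mCherry cells, and Prl2a1 is also above 0 in caMKK6 mCherry cells.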

How the data were processed

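Gene expression was measured by RNA-seq in 24 MEF, 23 colon and 23 liver libraries. Values are FPKM in 1 table deposited by the authors, made with cutadapt 1.12, STAR 2 and the mm10 genome per the submitters' processing notes; the counter and its annotation are not given in the sources used here. The table has 21859 gene rows and 4 rows for transgenes and reporters. Whole reads were recovered from the FPKM steps with GENCODE exon lengths (100% of values under 1000 reads were whole within 0.02; 21191 gene IDs matched and 672 did not), and give the depths and floors. A floor is 3 reads and covers counting error only.

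Genes with at least 1 FPKM in at least 3 MEF (11347) or 2 colon libraries (11542) were tested on log2(FPKM + 1) with limma 3.58.1 (trend, two-sided), over all MEF or all colon libraries; calls were made where the p adjusted by Benjamini-Hochberg over all genes tested was under 0.05. Scripts were tested on simulated data. Alternatives were a pseudocount of 0.1, no filter, median and quantile scaling, voom on the recovered reads, a replicate block, each library left out, and no caMKK6 library above 5 FPKM of the MEK1 transgene.

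Same-numbered libraries deviated together within a genotype (correlation of 0.25 to 0.80 in every pair) and not between genotypes (-0.20 to 0.18), so the numbers were taken to pair libraries within a genotype only. The block within genotype and the interaction test were added after seeing the data. Named were all 6 members, the 8 genes most correlated with their sum, up to 6 called genes of each list with the largest change at day 7 in caMEK1 MEFs, Prlr and Igf2r, and 3 neighbours on each side of each cluster; other genes named were chosen after their values were seen. Members and lists were chosen with earlier results of these data known. Python 3.11.15, numpy 2.4.6, pandas 2.3.3 and Biopython 1.88 were used.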

Additional observations from a re-analysis of the deposited data

Results flagged for a closer look

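The change from day 2 to day 7 on doxycycline differed between the kinases for 3 members by a test of the difference itself: Prl2c2 by 1.72 ± 0.50, Prl3d1 by 2.44 ± 0.70 and Prl3d3 by 2.80 ± 0.73 on the log2(FPKM + 1) scale, more positive in caMEK1 MEFs (limma, Benjamini-Hochberg adjusted p = 0.029, 0.027 and 0.016). In caMEK1 MEFs the group means at days 2 and 7 were 5.21 and 28.9 FPKM for Prl2c2, 18.6 and 61.8 FPKM for Prl3d1 and 41.4 and 81.2 FPKM for Prl3d3. In caMKK6 MEFs they were 27.3 and 39.6, 29.0 and 21.4, and 26.6 and 7.79 FPKM. The test was added after the values had been seen, and it called 13.2% of all genes, 8.05% higher and 5.17% lower. Of 19 alternatives, 8 ended the call of Prl2c2, 7 that of Prl3d1 and 2 that of Prl3d3.

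Colon GFP cells, which carry no kinase transgene by their label, also held reads of these genes in caMEK1 animals on doxycycline. Prl2c2 was at 0.346 and 4.04 FPKM (3 and 41 reads) and Prl2a1 at 1.57 and 1.34 FPKM (11 and 11 reads), with none of either in the GFP cells of control animals. Set against the mCherry cells of the same replicate number, these are 3.64% and 19.2% of the Prl2c2 level and 19.9% and 16.4% of the Prl2a1 level. The same GFP libraries held 12.3 and 28.7 FPKM of the MEK1 transgene, 4.27% and 12.2% of the mCherry cells' level, and 12.2 and 25.7 FPKM of the mCherry reporter (4.28% and 11.8%). The part of mCherry cells or their RNA in the GFP values was not tested.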

How the results depend on the processing

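Of 759 results of single members under an alternative, 694 kept their side of the threshold, 52 lost the call and 13 gained one. Among results called in the main fit or the alternative, 0 reversed. Changes of direction between results not called were not counted: Prl2c3 from day 2 to day 4 in caMEK1 MEFs ran from -0.247 to 0.519 on the log2 scale. The ratio of the summed level to untreated cells, the contrast that chose the members, moved by less than its replicate spread in 48 of 48. Of these, 36 left out a library, which can hardly move a group mean beyond that spread, so the count says little. The ratios given above without single libraries show how far they moved. The replicate block over all groups changed 0 of 55 member calls, and the block within genotype added 5 of 24. Counts of called genes over the whole table were within 1.5 times in 194 of 225. The others were these, and the cause was not tested. From day 4 to day 7 in caMEK1 MEFs, 409 genes were called, 240 with a pseudocount of 0.1, 655 with the replicate block, 1510 with the block within genotype and 118 to 387 with a library left out. In caMKK6 MEFs the same step gave 340, with the replicate block 583, within genotype 1509, without the caMKK6 libraries that hold the MEK1 transgene 68, and 48 to 991 with a library left out. From day 2 to day 4 in caMKK6 MEFs it was 1838, within genotype 3090, without the MEK1-bearing libraries 394, and 1051 to 1525. Without those libraries 1 untreated and 1 day 2 caMKK6 library are left, so these counts rest on an arm of 1 sample; caMKK6 MEFs against untreated gave 1484, 2388 and 2674 in place of 4443, 5088 and 4629 at days 2, 4 and 7, the untreated genotypes 279 in place of 735 (336 to 718 with a library left out) and the interaction 662 in place of 1500 (1021 to 2065). In the colon, leaving out a library gave 808 to 1936 in place of 2484 (caMEK1) and 1172 to 1854 in place of 2395 (caMKK6). The libraries that moved a count by over 1.5 times were all untreated MEF libraries except caMKK6 replicate 3 (336 to 455), caMEK1 day 4 replicates 1 and 2 and day 7 replicate 2 (118 to 142), caMKK6 day 2 replicate 2 (1051), day 4 replicates 1 and 2 and all 3 at day 7, and, in the colon, both control mCherry libraries (1387 and 1172) and caMEK1 mCherry replicate 2 (808). Median scaling moved the share of calls that were higher from 59.9% to 38.6% (caMEK1 day 4 to day 7; 38.7% with quantile scaling), from 36.6%, 38.2% and 41.1% to 52.9%, 53.9% and 51.4% (caMKK6 against untreated at days 2, 4 and 7; 48.9% at day 2 with quantile scaling), from 64.7% to 47.3% (caMKK6 day 4 to day 7), from 63.0% to 49.4% (untreated; 47.6% with quantile scaling) and from 44.3% to 55.5% (colon, caMEK1). Quantile scaling gave 48.3%, 47.6% and 47.6% between the kinases. No liver fit was run, since no member passed the filter there. Depth limits the untreated levels, which rest on 96 reads of all 6 genes in caMEK1 and 404 in caMKK6 MEFs, so the ratios to untreated cells are the least certain values.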
